A study of Mus musculus with 2 samples.

Results

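The loci described here are the mouse microRNA (miRNA) genes whose names carry a 4-digit number beginning with 5, 6, 7 or 8 and that had at least 1 sense read in these libraries. They were selected on their symbol and on measured values, the sense reads summed over both libraries, so their levels and the number of them with reads are a description. Of 1973 miRNA loci in the count tables, 421 had a name in this range, and 243 of those (57.7%) had a read. Over all 1973 loci the share with a read was 37.8%. The names with reads ran from Mir5099 to Mir8120. Inside the threshold, 32 loci had 1 read in all, worth 0.137 CPM (sense reads scaled to the library's total, as counts per 1000000) in replicate 1 or 0.252 CPM in replicate 2. Outside it, the other 178 loci of the name range had 0 reads, which allows up to 3 reads, or 0.411 and 0.756 CPM, for counting error only.

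The study sequenced miRNAs from B6NCrl mouse embryos at 14.5 days, in 1 group of 2 replicates of midbrain. Each replicate is labelled as a single midbrain, taken on its own collection day, while the sex field speaks of both sexes. Both carry the same pup number, dam number and donor identifier, so it is not known how far the spread between them is biological. The size range was under 30 nt, and no promoter, transgene or treatment is named. The sense counts at miRNA loci summed to 7302633 in replicate 1 and 3966727 in replicate 2. Of the midbrain neural miRNAs listed as markers, 10 of 11 matched a locus and 8 had at least 10 reads in each library. Their summed level was 36068 and 41083 CPM, most of it from Mir149, Mir137 and Mir153. Mir9-2 stood at only 3.42 and 0.756 CPM, and Mir124a-2, the highest of the listed Mir124a loci, at 11.1 and 11.6 CPM. Reads with more than 1 place in the genome were outside these counts. Other cells were present as well, since the endothelial Mir126a stood at 27037 and 18011 CPM. In whole tissue, fewer cells of a type and less RNA per cell cannot be told apart.

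A canonical miRNA is cut from a long transcript as a hairpin by the nuclear enzyme Drosha and then trimmed by Dicer to a short duplex, one strand of which guides Argonaute to matching messenger RNAs. Pairing rests mainly on the seed, the bases near the 5′ end of the mature strand. A mirtron takes another route: the hairpin is a short intron, its ends are made by the spliceosome, and Drosha is bypassed. In tailed mirtrons only one hairpin end coincides with a splice site and the rest of the intron has to be removed by nucleases. Many miRNAs with high numbers were named from deep sequencing alone, and some annotated loci of that kind overlap other RNAs whose breakdown products can enter a small RNA library.

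The mirtrons and tailed mirtrons carried the most common structure among these loci, and the hairpins of 5 of them are shown 5′ to 3′ as RNA, from RefSeq on GRCm38.p6. Capitals mark the intron's first GU and last AG where the hairpin reaches them. The first pair spans whole introns, the next pair ends at the splice acceptor only, and the last starts at the splice donor only.
Mir6944: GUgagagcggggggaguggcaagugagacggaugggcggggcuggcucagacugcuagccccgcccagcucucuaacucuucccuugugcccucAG
Mir6958: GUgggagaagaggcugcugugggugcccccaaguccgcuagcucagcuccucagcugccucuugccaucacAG
Mir7083: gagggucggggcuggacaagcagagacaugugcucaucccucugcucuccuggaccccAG
Mir6897: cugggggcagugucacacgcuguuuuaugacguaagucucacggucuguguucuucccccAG
Mir6977: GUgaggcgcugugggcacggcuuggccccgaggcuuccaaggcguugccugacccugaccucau

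Mature sequences of the leading loci are shown next, with the seed (bases 2 to 8) in capitals, because no pair of these 10 strands has the same seed.
mmu-miR-6540-3p: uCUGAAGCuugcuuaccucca
mmu-miR-6944-5p: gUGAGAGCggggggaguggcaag
mmu-miR-6944-3p: uAACUCUUcccuugugcccucag
mmu-miR-7689-3p: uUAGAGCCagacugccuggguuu
mmu-miR-8112: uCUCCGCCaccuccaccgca
mmu-miR-8114: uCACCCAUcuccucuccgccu
mmu-miR-5113: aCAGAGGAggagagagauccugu
mmu-miR-7688-5p: uAGCUGGGcaugaucugaugagc
mmu-miR-6236: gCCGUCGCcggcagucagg
mmu-miR-5101: uUUGUUUGuuuugcugaugcag
RefSeq held a mature sequence for 223 of the 243 loci and for 43 of the 48 that had at least 10 reads in each library. The deposited counts are per hairpin and do not say which arm the reads came from.

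Together the 243 loci held a very small part of the libraries. They had 4825 sense reads in replicate 1 and 2622 in replicate 2. This was 0.0661% of the sense reads in each replicate, with exact Clopper-Pearson 95% intervals of 0.0642% to 0.0680% and 0.0636% to 0.0687%, which cover counting error only. The summed level was 660.7 CPM in replicate 1 and 661.0 CPM in replicate 2, a ratio of 1.00 with an exact counting interval of 0.954 to 1.05. This call depended on the scaling: the ratio was 0.940 (0.896 to 0.986) with TMM library sizes, below 1 beyond counting error, and 0.956 (0.911 to 1.00) with DESeq2 size factors.

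Most of the loci were near the limit of what these libraries could count. In replicate 1, 231 of them had a read and in replicate 2, 199, with 187 in both, 44 in replicate 1 only and 12 in replicate 2 only. A further 95 loci had 2 to 9 reads in all, and the median locus had 9 reads. A total of 116 loci reached 10 summed reads and 9 reached 100. At least 10 reads in each library, here called detected, were found at 48 loci, 19.8% of the 243 and 11.4% of the 421 in the name range. Over all miRNA loci the share detected was 20.1%, and over all loci with a read it was 53.2%. Among the 500 other miRNA loci with a symbol and a read, 69.8% were detected. The median level of the 243 loci was 0.778 CPM, against 42.6 CPM for those other loci. CPM is not scaled by length. Hairpins of this set had a median of 66 nt, against 85 nt in those other loci, while the sequenced RNA was under 30 nt. The part of hairpin length in this gap was not tested.

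**Figure D1:**
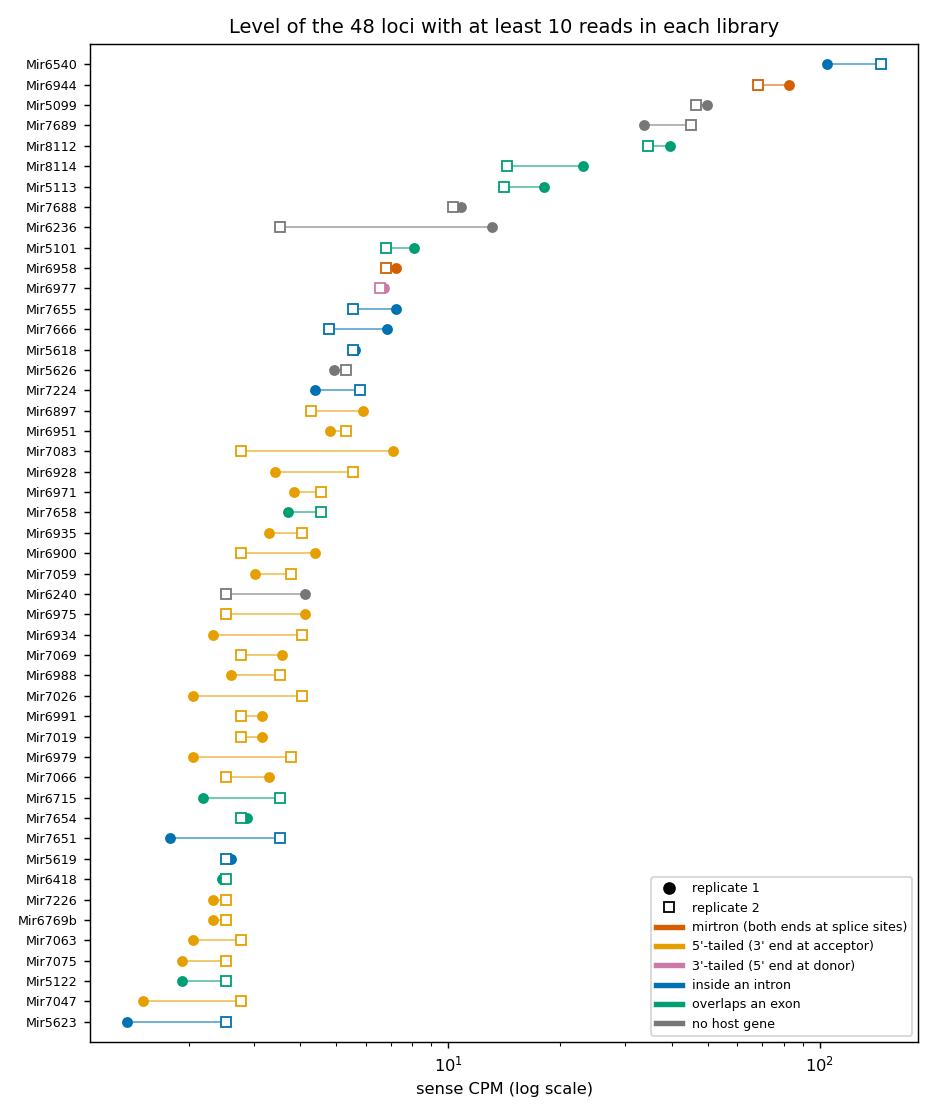
Sense level in CPM (log axis) of the 48 loci with at least 10 reads in each library, ordered by mean level; filled circles are replicate 1, open squares replicate 2, and colour gives the position of the hairpin in its host gene. Mir6540 and Mir6944 lie to the right of all others in both replicates, Mir6236 and Mir7083 show the widest gaps between replicates, and all 5′-tailed mirtrons except Mir7083 in replicate 1 lie below 6 CPM.

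The hairpins were sorted by where they lie in genes on the same strand, from the GENCODE M21 annotation and with a tolerance of 5 nt at splice sites. A hairpin end coincided with a splice site at 149 of the 243 loci (61.3%). Among the 178 loci of the same name range without reads this was so for 36 (20.2%), and among the 1473 other miRNA loci with a symbol for 24 (1.63%). Among the detected loci it held for 25 of 48 (52.1%), against 13 of 349 other detected loci (3.72%). The position of a hairpin was not used directly to select the loci, but it goes with the name. Over all 421 loci of the name range, with or without reads, 185 (43.9%) had such an end. The contrast with the other loci was therefore partly set by the choice of names. That choice was made with results of these data known, so these are counts without a test.

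Most of these were 5′-tailed mirtrons, in which the hairpin's 3′ end meets the splice acceptor. There were 134 with reads and 30 without in the name range, so that 81.7% of the 164 had a read. Both-ended mirtrons numbered 11 with reads and 4 without (73.3% of 15), and 3′-tailed mirtrons 4 with reads and 2 without (66.7% of 6). Hairpins inside an intron numbered 39 with reads and 41 without (48.8% of 80). Those overlapping an exon numbered 39 and 19 (67.2% of 58). Loci with no host gene numbered 16 and 82, which made 16.3% of 98 with a read. Among the other miRNA loci the splice-site classes were small. The share with a read there was 71.4% for 5′-tailed mirtrons (10 of 14), 75% for both-ended mirtrons (6 of 8) and 100% for 3′-tailed mirtrons (2 of 2). It was 52.8% over exons, 43.7% inside introns and 20.2% without a host, the order of these classes in the name range.

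**Figure D2:**
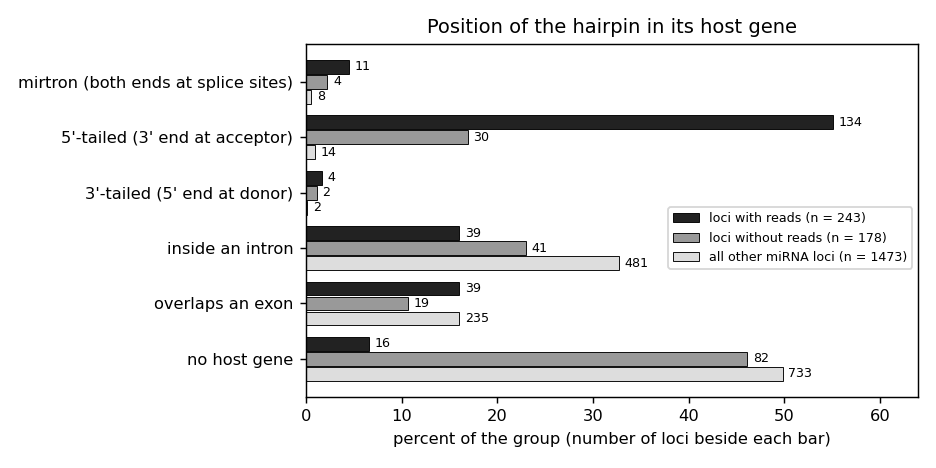
Percent of each set of miRNA loci whose hairpin falls in each of 6 positions relative to a host gene on the same strand; black bars are the 243 loci of the name range with reads, dark grey the 178 without reads and light grey the 1473 other loci with a symbol, with the number of loci beside each bar. The 5′-tailed class holds 134 of 243 loci with reads and 14 of 1473 other loci, while no host gene is the most common position in both other sets.

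The reads were spread over the classes differently from the loci. Hairpins inside introns had the largest summed level, 177 ± 29.0 CPM (SD, n = 2), or 25.9% of the reads of the set. This rank rested on Mir6540, since the other 38 loci of the class summed to 51.7 ± 0.333 CPM. The 134 5′-tailed mirtrons followed with 149 ± 2.41 CPM (22.6%), so this class held most loci but few reads per locus. Loci without a host had 123 ± 1.63 CPM (18.7%), exon-overlapping loci 113 ± 12.3 CPM (17.5%), both-ended mirtrons 89.4 ± 12.4 CPM (13.9%) and 3′-tailed mirtrons 9.39 ± 0.0856 CPM (1.42%). Without its highest locus, Mir6944, the mirtron class had a summed level of 15.6 and 12.4 CPM in the replicates, while the 5′-tailed class without Mir7083 still summed to 144 ± 0.666 CPM. In this order, the intron and 5′-tailed classes differed by less than the larger of their SDs, and so did the loci without a host and the exon class. In the order of detected loci the 5′-tailed class had 22, the exon class 9, the intron class 8, the loci without host 6, the mirtrons 2 and the 3′-tailed mirtrons 1.

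The sets differed in the distance from the hairpin to the acceptor. Of 188 loci with reads whose hairpin lay in an intron, 145 (77.1%) had their 3′ end within 5 nt of the acceptor. Among intron-hosted loci of the name range without reads it was 34 of 77 (44.2%), and among other loci 22 of 505 (4.36%). The other loci pool all remaining names, among them predicted loci with Gm names. Mir3077, Mir3094 and Mir3100, numbered just below this range, were among the 22. The share in single name ranges was not counted there. In 131 of the 134 5′-tailed mirtrons with reads, the hairpin ended exactly at the last base of the intron. The last bases were AG in 131 of the 134 and CAG in 115. Acceptors are preceded by a run of pyrimidines, and the last 20 bases of these hairpins had a median of 70% pyrimidines. It was 72.5% in the 5′-tailed loci without reads and 50% in the hairpins inside introns with reads. The 5′-tailed class is defined by an end at the acceptor, so these last bases follow largely from the definition.

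**Figure D3:**
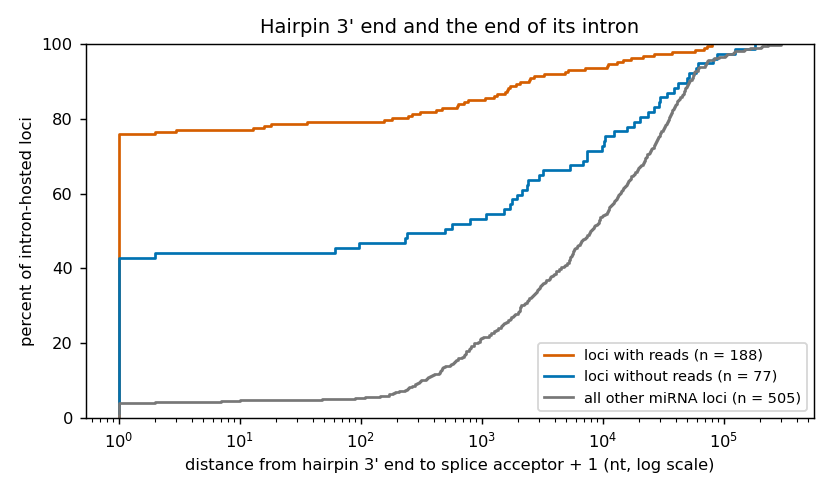
Cumulative percent of intron-hosted miRNA loci by the distance from the hairpin's 3′ end to the splice acceptor plus 1 nt (log axis); orange is the 188 loci of the name range with reads, blue the 77 without reads and grey the 505 other loci. The orange curve starts above 70% at a distance of 0 nt, the blue one above 40% and the grey one below 10%, and the curves meet only at the far right.

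The mature sequences carried the same ends. Of 119 3p arms of 5′-tailed mirtrons, 96 ended in AG and 97 ended at the last base of the hairpin. Their median pyrimidine content was 71.4%, against 33.3% in the 5p arms. Of 24 3p arms from hairpins inside introns, 21 also ended at the last base of the hairpin, but 1 ended in AG. As with the hairpins, the AG ends follow largely from the definition of the 5′-tailed class. Of 9 5p arms of both-ended mirtrons, 8 began with GU. Measured on the genome, 125 of the 223 loci with a mature sequence (56.1%) had a mature end within 1 nt of a splice site. Of these, 8 belonged to the exon class, where the annotated hairpin ran past the splice site into the exon. Mir5101 in Syne2, Mir6418 in Gnb2 and Mir5132 in Irak1 were among the 8. With them, 157 loci (64.6%) had a hairpin or mature end at a splice site. These 3 names and the mature-end measure were chosen after their values were seen. That measure was not compared with loci without reads or with other loci, so the 64.6% has no matching share.

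Host introns differed in length with the class. The 11 both-ended mirtrons were introns of 67 to 137 nt with a median of 85 nt. The 5′-tailed mirtrons with reads lay in introns of 77 to 36269 nt with a median of 502 nt, and 41 of 134 of these were shorter than 200 nt. Those without reads had a median of 568.5 nt. The 4 introns of 3′-tailed mirtrons had a median of 83.5 nt. For the hairpins inside introns the median host intron was 5000 nt with reads and 24350 nt without, close to the 23666 nt of other loci in that position.

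Hairpins with reads were short and rich in G and C. Their median length was 66 nt and their median GC content 57.5%. Loci of the name range without reads had 92.5 nt and 51.8%, and other loci 95 nt and 49.6%. Within the 5′-tailed class the medians barely differed, at 65 nt and 57.7% with reads against 64.5 nt and 56.5% without. In loci without a host the gap was wide, at 75.5 nt with reads against 103 nt without. Predicted folding energy per nt, where a lower value means a more stable hairpin, had a median of -0.413 kcal/mol with reads, -0.348 without reads and -0.433 in other loci with a read. The medians for loci without a host were -0.455 with reads and -0.322 without.

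By name, the numbers starting with 6 and 7 held nearly all of the splice-site loci. In the Mir6 block 75 of 91 loci with reads had a hairpin end at a splice site, and in the Mir7 block 71 of 105. The Mir5 block had 3 of 31 and the Mir8 block 0 of 16. In the Mir8 block 10 of the 16 loci with reads overlapped an exon. The summed level was highest in the Mir6 block, at 325 ± 12.1 CPM (SD, n = 2), then 162 ± 2.03 CPM for Mir7, 110 ± 5.95 CPM for Mir5 and 64.1 ± 7.93 CPM for Mir8. The first place rested on Mir6540 and Mir6944, without which the other 89 loci of the Mir6 block summed to 124 ± 7.19 CPM. Without Mir5099 the Mir5 block summed to 61.4 ± 3.78 CPM, and without Mir8112 the Mir8 block to 30.1 and 23.9 CPM in the replicates.

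Mir6540 was the highest of all the loci. It lies at chr16:42303362-42303469 on the minus strand (mm10, the assembly also called GRCm38), in an intron of Gap43, which encodes a protein of axonal growth cones. It had 765 reads in replicate 1 and 580 in replicate 2, or 105 and 146 CPM (125 ± 29.3, SD, n = 2). The ratio of replicate 2 to replicate 1 was 1.40, with an exact counting interval of 1.25 to 1.56. The level was thus higher in replicate 2 beyond counting error. Its host intron is 48106 nt long and the hairpin sits 10995 nt before the acceptor, so it has no splice-site end. Even so it ranked 198 among all loci, and the most abundant miRNA locus was 1708-fold higher.

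Mir6944 was the leading mirtron. It fills the whole 96 nt of an intron of Dbn1, the gene of drebrin, an actin-binding protein of dendrites, at chr13:55477681-55477776 on the minus strand. The locus had 603 reads in replicate 1 and 271 in replicate 2, or 82.6 and 68.3 CPM (75.4 ± 10.1, SD, n = 2). This level was lower in replicate 2 beyond counting error, with a ratio of 0.827 (0.714 to 0.956). It held most of the reads of its class, since the 11 mirtrons together had 717 and 320 reads. In the hairpin printed above, the 5p arm starts with the intron's GU and the 3p arm ends with its AG.

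The other mirtrons were far lower. Mir6958 fills a 73 nt intron of Dennd6b at chr15:89185465-89185537 and had 53 and 27 reads, or 7.26 and 6.81 CPM, which are alike within counting error (ratio 0.938, 0.567 to 1.52). Mir7070 fills an 86 nt intron of Fbxw9, which encodes an F-box protein, and had 16 and 7 reads. The other 8 had 16 summed reads or fewer, and 2 of those had a single read. The one detected 3′-tailed mirtron was Mir6977 in a 79 nt intron of Ptprs, the gene of a receptor tyrosine phosphatase found on axons. It had 49 and 26 reads, or 6.71 and 6.55 CPM, with a ratio of 0.977 (0.583 to 1.60).

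The detected 5′-tailed mirtrons lay in a narrow range, which the minimum of 10 reads in each library bounds from below. These 22 had mean levels from 2.14 to 5.09 CPM, the highest at Mir6897. Over all 134 loci of the class with reads, the median was 8 summed reads and no locus had more than 63. Mir6897, at chr1:36144252-36144313 in Uggt1, a folding sensor of the endoplasmic reticulum, had 43 and 17 reads, or 5.89 and 4.29 CPM. Mir6951, in Azin1, the gene of an antizyme inhibitor in polyamine control, had 35 and 21 reads, or 4.79 and 5.29 CPM. Both pairs of values lay within counting error of each other.

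Mir7083 was the one detected locus of this class whose replicates differed beyond counting error. It lies at chr9:21809941-21810000 in Dock6, the gene of an exchange factor for small GTPases. It had 52 and 11 reads, or 7.12 and 2.77 CPM, a ratio of 0.389 (0.183 to 0.755). Mir6928, in Atp6v0a1, a subunit of the vesicle proton pump, had 25 and 22 reads, or 3.42 and 5.55 CPM, and its interval of 0.871 to 2.99 held 1.

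Further detected 5′-tailed mirtrons lay in genes of varied function. Mir7066 in Ncan, a proteoglycan of the brain's extracellular matrix, had 24 and 10 reads. Mir6769b in Unc13a, which primes synaptic vesicles, had 17 and 10 reads. Mir7226 in Ptprf, a receptor phosphatase of the same family as Ptprs, had 17 and 10 reads. Mir6935 in Actg1, a cytoplasmic actin, had 24 and 16 reads. Mir7059 in Cln3, a lysosomal membrane protein, had 22 and 15 reads. Mir7026 in Ep400, a chromatin remodeller, had 15 and 16, and Mir6988 in Syvn1, a ubiquitin ligase of the endoplasmic reticulum, had 19 and 14. Mir7075 in Terf2, a telomere protein, had 14 and 10, and Mir7063 in Ap2a2, a clathrin adaptor subunit, had 15 and 11. Mir7019 in Pink1, a mitochondrial kinase, had 23 and 11 reads, and Mir6900 in Ndufa10, a subunit of respiratory complex I, had 32 and 11. Host gene expression was not measured in these libraries. Of the 243 loci, 227 had a host gene, and at 225 loci the host was protein-coding.

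The 3p arms of these loci show the shared end. The arms below come from detected 5′-tailed mirtrons, again with the seed in capitals. They were picked for this end, and each closes in the AG of its acceptor after a stretch rich in C and U.
mmu-miR-7083-3p: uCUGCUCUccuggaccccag
mmu-miR-6897-3p: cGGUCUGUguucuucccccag
mmu-miR-6928-3p: aAGCUGUUccuguacucuccag
mmu-miR-6935-3p: uGUUCUUUgucuuuccacag
mmu-miR-7019-3p: uCACCUUGgccgccucucugcag
mmu-miR-7075-3p: cAACCAUGucuucuuucccag
mmu-miR-6975-3p: uCUCUCCUuucuccuccuag
The last comes from Ddx39b, an RNA helicase of messenger RNA export, where Mir6975 had 30 and 10 reads. Its acceptor is preceded by U rather than C.

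A few genes hosted more than 1 of the loci. There were 6 such genes among 221 hosts: Arap3, Camk2a, Ccnf, Ddx39b, Skiv2l and Srebf1. In Skiv2l, the gene of an RNA helicase that works with the exosome, the 5′-tailed Mir6971 had 28 and 18 reads and lies in an intron of 135 nt. The second locus of Skiv2l was the mirtron Mir6970, which was not detected, with 10 and 3 reads. These hosts were named after their values were seen.

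Among hairpins inside introns, only Mir6540 exceeded 10 CPM. Mir7655, in Mllt10, a chromatin protein, had 53 and 22 reads, or 7.26 and 5.55 CPM. Mir7666 lies in Fgf20, the gene of a fibroblast growth factor active in the developing brain, and had 50 and 19 reads, or 6.85 and 4.79 CPM. Mir5618 in Tmem123 had 41 and 22 reads, or 5.61 and 5.55 CPM. All 3 had ratios whose intervals held 1. The detected remainder was Mir7224 in B3galt1, Mir5619, Mir7651 and Mir5623, with 20 to 55 summed reads.

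Loci overlapping exons included some of the highest. Of 39 with reads, 21 lay in coding exons, 10 in 5′ UTRs, 6 in 3′ UTRs and 2 in noncoding transcripts. Mir8112, in the 5′ UTR of Krcc1 at chr6:71271671-71271801, had 289 and 137 reads, or 39.6 and 34.5 CPM (37.1 ± 3.56, SD, n = 2). Mir8114 lies in the 5′ UTR of Glul, the gene of glutamine synthetase, at chr1:153899926-153900036. It had 168 and 57 reads, or 23.0 and 14.4 CPM, and was lower in replicate 2 beyond counting error (ratio 0.625, 0.454 to 0.848). Mir5113 lies in the 3′ UTR of Tnrc6b, whose product works with Argonaute in silencing, at chr15:80940039-80940120. It had 132 and 56 reads, or 18.1 and 14.1 CPM, with a ratio of 0.781 (0.561 to 1.08).

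The other exon loci were lower. Mir5101, at the start of a coding exon of Syne2, the gene of a nuclear envelope protein that anchors the nucleus to the cytoskeleton, had 59 and 27 reads, or 8.08 and 6.81 CPM. Its mature sequence ends in CAG exactly at the acceptor of that exon. Among the rest, Mir7658 in Plekhn1 had 27 and 18 reads, and Mir6715 in Tectb, which encodes a protein of the inner ear's tectorial membrane, had 16 and 14. Mir6418 in Gnb2, a G protein subunit, had 18 and 10. In the sense orientation, reads of a spliced or broken messenger RNA and of a hairpin in its exon would be counted alike, and read lengths were not analysed here.

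Loci without a host gene held 3 of the 8 highest places. Mir5099, at chr12:36816205-36816278, had 363 and 185 reads, or 49.7 and 46.6 CPM (48.2 ± 2.17, SD, n = 2), and a ratio of 0.938 (0.782 to 1.12). Mir7689, at chr5:36301570-36301628, had 246 and 179 reads, or 33.7 and 45.1 CPM. It was higher in replicate 2 beyond counting error (ratio 1.34, 1.10 to 1.63). It lies opposite Sorcs2, which encodes a sorting receptor of neurons, and had no opposite-strand read. Mir7688, at chr10:93433107-93433162, had 79 and 41 reads, or 10.8 and 10.3 CPM, which are alike within counting error. Mir5626, also without a host, had 36 and 21 reads, or 4.93 and 5.29 CPM.

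Mir6236 stood apart between the replicates. It had 96 reads in replicate 1 and 14 in replicate 2, or 13.1 and 3.53 CPM, a ratio of 0.268 (0.141 to 0.473). No other detected locus had a lower ratio. Mir5126, on the strand opposite Dner, a neuronal Notch ligand, had 27 and 4 reads with a ratio of 0.273 (0.0693 to 0.783), but was not detected by the minimum of 10 reads. Across the 48 detected loci the interval of the ratio held 1 in 42, lay above 1 at Mir6540 and Mir7689, and lay below 1 at Mir6944, Mir8114, Mir6236 and Mir7083. The same 6 loci were called with TMM library sizes and with DESeq2 size factors. The ratios ran from 0.268 to 1.98 with a median of 1.01. The blood-cell marker miRNAs were also lower in replicate 2, with a summed level of 476 and 142 CPM for the red cell list and 212 and 24.5 CPM for the myeloid Mir223. Endothelial Mir126a was lower there as well, at the levels given above. The mesenchyme list stood at 5753 and 3833 CPM with 3 of 4 loci detected. The choroid plexus Mir204 stood at 754 and 636 CPM. The muscle list went the other way, at 23.0 and 30.0 CPM, nearly all of it from Mir206. None of the matched markers was at 0 in both libraries, but Mir1a-1 had 1 and 0 reads and Mir199a-1 had 2 and 1. Such counts do not show that their cells were present. The part of these cells in the ratios above was not tested.

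**Figure D4:**
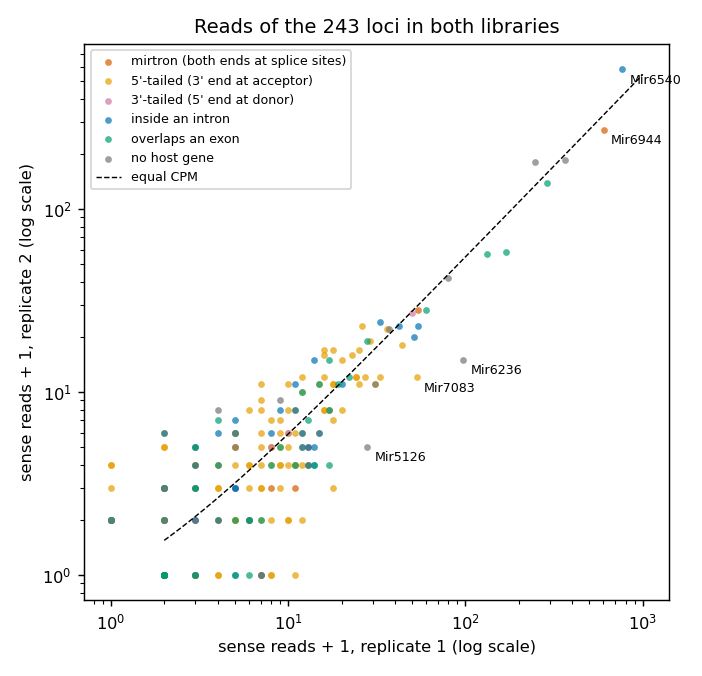
Sense reads plus 1 of the 243 loci in replicate 1 (x axis) and replicate 2 (y axis), both on log scales, coloured by hairpin position; the dashed line marks equal CPM. Most points follow the line within the scatter of small counts, Mir6540 lies above it, and Mir6236, Mir7083 and Mir5126 lie well below it.

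The search for other RNAs found little among these loci. A hairpin stretch of 18 nt occurred in an annotated structural RNA (ribosomal, small nuclear, nucleolar and the like) for 2 of 243 loci. The count was also 2 among the 178 loci of the name range without reads. It was 216 among the 1473 other loci, with or without reads. Of the 2 loci with reads, the first was Mir8111, with 8 reads in each replicate, which matched the unclassified small RNA gene Gm27896. The second was Mir6929, with 1 read, which matched the nucleolar RNA gene Gm24313. Mir6929 is named because the count is small. With 16 nt the count was 12 and with 20 nt it was 0. No locus overlapped a structural RNA gene of RefSeq by position, a set that held 430 transfer RNA and 65 ribosomal RNA genes. Cytoplasmic transfer RNAs and the long ribosomal precursor were not searched by sequence here.

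Mir6236 and Mir6240 are the 2 loci with reads on a list of 9 annotated miRNAs recalled as suspected pieces of other RNAs. Of the 9 names 4 matched a locus, and the other 2 that matched had 0 reads. Neither Mir6236 nor Mir6240 has a host gene. Mir6240 had 30 and 10 reads, or 4.11 and 2.52 CPM, and its ratio of 0.614 (0.268 to 1.29) held 1. Stretches of 18 nt of the Mir6236 hairpin occurred in 45 other annotated genes and of the Mir6240 hairpin in 18. Their mature sequences are given with the seed in capitals.
mmu-miR-6236: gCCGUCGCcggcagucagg
mmu-miR-6240: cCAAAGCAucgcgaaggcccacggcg

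Shared stretches with other genes of any kind were more frequent. A total of 87 loci had an 18 nt stretch that occurs in the transcript of another gene, and 14 had one in at least 5 genes. These counts were not set against other miRNA loci, so it is not known whether they are high or low. Mir8111 had stretches in 1197 other genes and Mir8112 in 154. Mir5101, whose mature strand opens with repeated UUUG, had 26. Reads with more than 1 place in the genome stayed outside the gene counts, so such loci can be undercounted. Stretches shared between hairpins were rare in this set. An exact 20 nt stretch of another miRNA hairpin, on either strand, was found at 6 of 243 loci (2.47%). Among the 1473 other loci, of which 500 had a read, it was found at 903 (61.3%). The 243 loci needed a counted read, and reads with more than 1 place were not counted. These shares are therefore not alike, and the part of this selection in their gap was not tested. Such a stretch is only a part of a hairpin. Mir8112 and Mir8111 were among the 6, sharing a stretch with 5 and 11 other hairpins.

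Nearly all reads lay on the annotated strand. The sense share was 99.3% in replicate 1 (exact Clopper-Pearson 98.98% to 99.48%) and 99.7% in replicate 2 (99.35% to 99.84%), against 97.98% and 97.93% over all miRNA loci. The 45 opposite-strand reads fell at 15 loci, and 27 of them at Mir7654 and Mir5620. Mir7654, in an exon of Arglu1, a splicing-related gene, had 14 and 1 opposite reads beside 21 and 11 sense reads. At Mir5620, which lies opposite the chloride transporter gene Clcn4, 10 and 2 opposite reads exceeded the 6 and 0 sense reads. Mir8105 had 3 and 0 opposite reads beside 1 and 2 sense reads.

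Seeds were diverse. The 392 mature sequences held 366 different seeds, and 21 seeds were shared by loci of the set, 46 loci in all. Of the 21, 6 seeds included a detected locus. Among these, Mir7689 shared the seed of its 5p arm with Mir5620, and Mir7688 that of its 3p arm with Mir7652. Against the 100 most abundant of the other miRNA loci, 5 seeds matched. The only detected locus in these matches was Mir7069, a 5′-tailed mirtron of Farsa, a subunit of a transfer RNA synthetase, with 26 and 11 reads, or 3.56 and 2.77 CPM. Its 3p arm had the seed of miR-18a-3p, from a locus that stood at 6686 and 6770 CPM. That level counts both arms of the hairpin together and is not the level of this strand.
mmu-miR-7069-3p: cCUGCCCUgccaaccccuaca
mmu-miR-18a-3p: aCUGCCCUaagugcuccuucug
Mir7016 had the seed of miR-149-3p, Mir6932 and Mir7039 that of miR-26b-3p, Mir6921 that of miR-423-5p and Mir7014 that of miR-130b-5p, each with 14 summed reads or fewer. These 5 were named after the match was seen. The pair of strands printed above is alike in the seed, and the match says nothing about what either strand binds.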

How the data were processed

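Each library is 1 table in which the authors deposited raw counts of reads at each miRNA gene, in columns for both strands, the annotated strand and the opposite one. Per the text deposited with the libraries, counting used mm10 and annotation M4. For the aligner and counter: not given in the sources used here. Classes of reads outside genes were left out of library sizes. Reads mapping to several places were 36.2% and 36.9% of all reads. CPM were sense counts scaled to 1000000 sense reads over all gene rows, so 1 read was worth 0.137 and 0.252 CPM. With a single group there was no contrast and no test between conditions.

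Gene identifiers were matched to GENCODE M21 on the same assembly, and 1894 of 1973 matched. Hairpin ends were compared with introns of same-strand genes, and splice-site positions took precedence over exon overlap. Hairpins were folded with RNAfold 2.7.2. Ratios of CPM have exact conditional Clopper-Pearson 95% intervals, tested on simulated counts, which cover counting error between these 2 libraries only. PCR reads are not independent molecules. Alternatives used edgeR 4.0.16 (TMM) and DESeq2 1.42.0 size factors in R 4.3.3. Other steps used Python 3.11.15, pandas 2.3.3 and SciPy 1.17.1.

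Named loci were those with at least 10 reads in each library, the 3 highest of each class, fragment loci with 10 reads, the 3 largest replicate ratios in each direction among loci with 20 reads, and the 3 with most opposite-strand reads. The loci, lists and rules were chosen with earlier results of these data known.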

Additional observations from a re-analysis of the deposited data

How the results depend on the processing

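The share of sense reads was 0.0661% and became 0.0651% with reads of both strands and 0.0527% with only the 48 detected loci, and it lay at 0.0661% with either replicate left out. The 243 loci became 116 with a minimum of 10 summed reads and 421 with no minimum, and 199 to 231 with a replicate left out. Detected loci rose from 48 to 124 with a minimum of 3 reads and to 81 with a minimum of 1 CPM, and ranged from 50 without replicate 1 to 84 without replicate 2. Loci matching a structural RNA went from 2 to 12 at 16 nt and to 0 at 20 nt, and lay at 1 to 2 with a replicate left out. The summed level of 660.859 CPM became 661.171 with TMM library sizes and 650.878 with both strands, and ranged from 660.721 to 660.998 with a replicate left out. The ratio of the replicates went from 1.00 to 0.940 with TMM, where its interval no longer held 1. In each case the cause was not tested, beyond the fewer or more loci and reads that the setting itself admits. Mirtrons numbered 9 to 12 and loci with a hairpin end at a splice site 119 to 158 over the tolerances of 2 and 10 nt and with each replicate left out. The alternatives for splice-site ends, the intervals under other scalings and the sums without the highest loci were chosen after seeing the data. Levels of the 53 loci open to naming moved by factors of 0.983 to 1.03 with TMM and 0.987 to 1.02 with DESeq2 size factors. With both strands the factors were 0.979 to 3.21, the highest at a locus with more opposite-strand than sense reads. No paired analysis was possible because there was 1 group. Depth limited single loci, since only 116 of the 243 loci had at least 10 reads in all.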
